A study of Mus musculus with 15 samples.

Results

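Glucose enters a cell through transporters of the plasma membrane and is broken down to pyruvate by the enzymes of glycolysis, and the pyruvate can be reduced to lactate and exported. The 10 genes described here cover that route from uptake to export. They were *Slc2a1* (the glucose transporter GLUT1), *Hk2* (hexokinase 2), *Pfkfb3* and *Pfkl* of the phosphofructokinase step, *Aldoa*, *Gapdh*, *Pgk1* and *Pkm* of the later steps, *Ldha* (lactate dehydrogenase A) and *Slc16a3* (the lactate exporter MCT4). They were chosen by name, not by their measured values, and all 10 were found among the 20089 genes analysed.

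The cells were bone marrow derived macrophages (BMDMs) of wild-type C57BL/6 mice, grown in culture from marrow with M-CSF, the growth factor that macrophages need, and profiled by bulk RNA sequencing in 15 samples. The 5 groups of 3 samples were control cells kept in M-CSF, and cells given M-CSF together with RANKL or LPS for 4 h or for 72 h (named as 3 days in the labels). The methods give 100 ng/mL of either stimulus and, for BMDM culture, 50 ng/mL of M-CSF. The labels give no time for the control cells, so time in culture and stimulus cannot be told apart in the comparisons with control. The mice were given no age in the labels, which also do not say whether samples of a group came from separate animals or cultures, and p-values then measure only the spread between these samples.

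RANKL is the cytokine that drives macrophages to fuse into bone-resorbing osteoclasts, cells rich in mitochondria that also take up much glucose. LPS, a component of the wall of Gram-negative bacteria, activates macrophages through Toll-like receptor 4, and macrophages activated in this way are known for high glucose uptake and lactate release. The enzyme PFKFB3 makes fructose 2,6-bisphosphate, the strongest allosteric activator of phosphofructokinase, while the transcription factor HIF-1 binds DNA at the letters ACGTG (within a longer element) and is known to induce most of the genes listed above.

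Expression was given in FPKM, the fragments of a gene relative to the length of its exons and the depth of the library, which allows levels of different genes to be compared. Between 18306184 and 20330207 fragments per sample lay on the listed genes, and members had between 543 (*Slc16a3* in an LPS 4 h sample) and 89305 (*Pkm* in a RANKL 72 h sample) fragments each, so counting error was small beside the spread between samples. All 8 macrophage markers examined (among them *Csf1r*, *Adgre1* and *Cd68*) were present in every group, with summed levels of 6046 to 17491 FPKM. As a check of the labels, 5 of 5 osteoclast genes were called higher in RANKL 72 h and 5 of 5 LPS-induced genes in LPS 4 h. No osteoclast gene of the 5 was called in RANKL 4 h. Markers of other cells also differed between groups. The sum of 10 neutrophil markers ran from 7920 to 24381 FPKM in control, 1902 to 7649 in RANKL 72 h and 152 to 1819 in LPS 72 h, and the sum of 10 stromal markers from 173 to 376 in control, 466 to 2127 in RANKL 72 h and 136 to 582 in LPS 72 h. Replicate 3 of LPS 72 h stood apart with the highest sum of both lists in its group. No marker of either list was at 0 in all 3 samples of any group. Summed markers of B cells (38.2 to 87.0 FPKM), of T and NK cells (3.73 to 24.0) and of erythroid cells (2.93 to 57.7) were low in every sample beside those of macrophages. The neutrophil sums of control replicates 1 (24381 FPKM) and 3 (21613 FPKM) lay above the macrophage sums of control (7360 to 9075 FPKM). The same held for replicates 1 and 3 of both 4 h groups.

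Promoters of the members are shown first, since the gene values below fall into patterns that cut across the route. The windows of 250 bases before to 50 after each RefSeq start (GRCm38.p6) were searched on both strands for ACGTG, which reads CACGT on the other strand and is part of the E-box CACGTG. At least 1 window of 9 of the 10 members held it, *Pfkl* being the exception, against 21.8% of 27025 genes with such a window and 28.8% of 8973 tested genes. CACGTG itself was found for *Ldha* and *Pfkfb3*, against 8.09% of all genes and 11.5% of tested genes. The 10 members had 15 windows and the 27025 genes 32851, and a gene with more windows has more places for a match. The only match of *Gapdh* did not lie wholly before its start. Capitals below mark ACGTG or CACGT, and each stretch runs 5′ to 3′ on the gene's own strand from 150 bases before the RefSeq start to that start or to the base before the first annotated exon. Shown are *Slc16a3* and *Pgk1*, members with large differences at 72 h, *Ldha* with 5 overlapping or separate matches, *Hk2* and *Pfkfb3*, which peaked at 4 h in LPS, and *Pfkl*, which has no match.
*Slc16a3* (chr11:120948917-120949052, plus strand): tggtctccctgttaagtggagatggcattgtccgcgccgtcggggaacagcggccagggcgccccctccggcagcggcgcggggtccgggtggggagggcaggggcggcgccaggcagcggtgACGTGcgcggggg
*Pgk1* (chrX:106186950-106187099, plus strand): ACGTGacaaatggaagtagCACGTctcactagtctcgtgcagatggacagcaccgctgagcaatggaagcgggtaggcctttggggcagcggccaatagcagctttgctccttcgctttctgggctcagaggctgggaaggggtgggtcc
*Ldha* (chr7:46845654-46845803, plus strand): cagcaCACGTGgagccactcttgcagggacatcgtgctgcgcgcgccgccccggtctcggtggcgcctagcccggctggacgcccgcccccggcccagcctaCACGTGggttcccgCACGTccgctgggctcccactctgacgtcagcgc
*Hk2* (chr6:82774455-82774604, minus strand): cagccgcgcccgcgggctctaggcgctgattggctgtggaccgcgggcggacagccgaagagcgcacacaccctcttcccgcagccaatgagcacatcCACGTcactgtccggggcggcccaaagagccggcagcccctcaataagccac
*Pfkfb3* (chr2:11502102-11502240, minus strand, inside the gene before its shorter transcript): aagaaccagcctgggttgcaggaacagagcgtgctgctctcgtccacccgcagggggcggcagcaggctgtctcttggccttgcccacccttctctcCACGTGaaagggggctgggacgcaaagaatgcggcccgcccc
*Pfkl* (chr10:78009808-78009957, minus strand): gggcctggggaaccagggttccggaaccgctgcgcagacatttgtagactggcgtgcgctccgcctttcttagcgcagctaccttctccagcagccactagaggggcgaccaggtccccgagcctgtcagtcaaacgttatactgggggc
*Slc16a3* holds a further match 14 bases before its RefSeq start and *Slc2a1* (on chromosome 4) a match 36 bases before it, both in or across bases that GENCODE annotates as exon. A match is a description of the letters only, and no binding was measured.

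**Figure D1:**
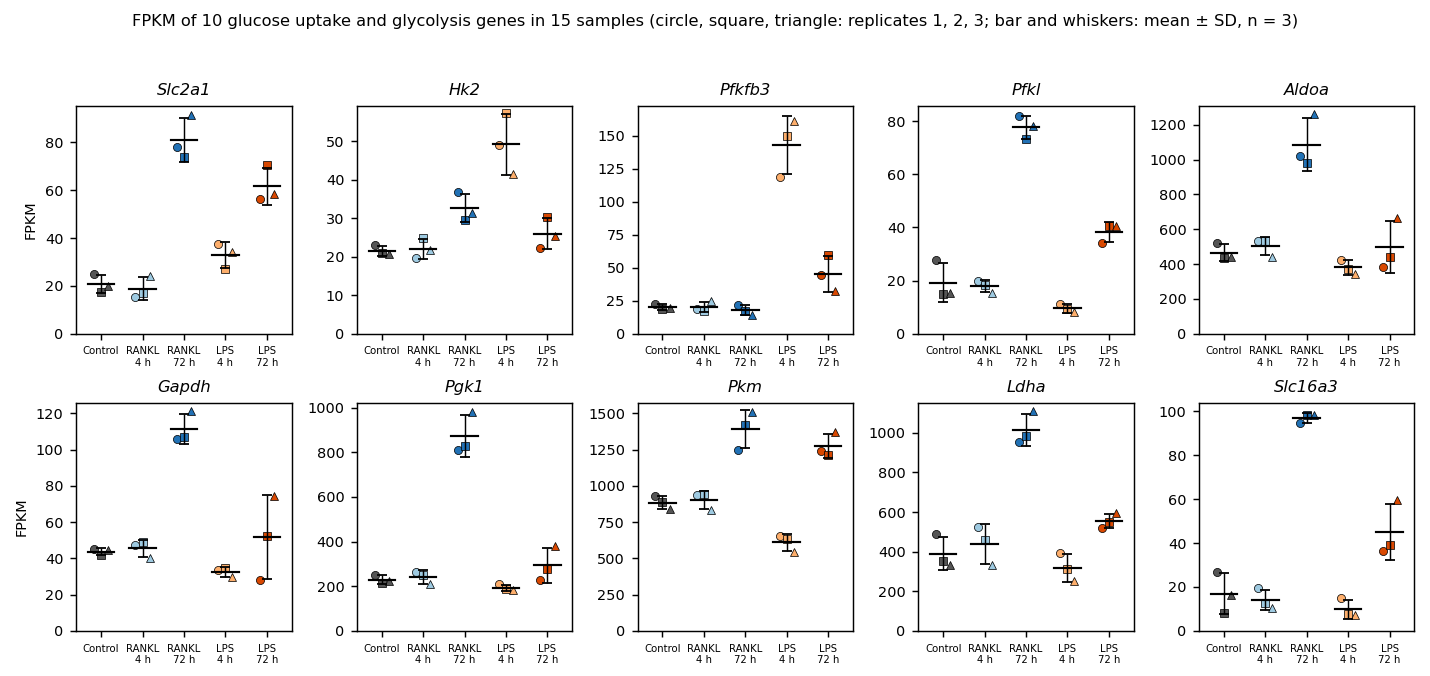
FPKM (vertical axis, linear, from 0) of each of the 10 members in the 15 samples, by group on the horizontal axis, where symbols are replicates 1, 2 and 3 and the bar with whiskers is the mean ± SD (n = 3). The RANKL 72 h samples lie above all control samples for every member but *Pfkfb3*. The share of all genes with such a gap was not computed, and 20.2% of tested genes were called higher in RANKL 72 h. For *Pfkfb3* the LPS 4 h samples lie at 118 to 161 FPKM against 18.9 to 22.7 in control.

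A gene was called higher or lower at a fold change above 1.5 or below 0.66 together with an unadjusted p under 0.05 in limma, the thresholds of the study's methods, and adjusted p-values are Benjamini-Hochberg values over all 11743 tested genes. Differences are on the scale of log2(FPKM + 0.1). The 4 comparisons with control share the same 3 control samples.

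After 72 h of RANKL, 9 of the 10 members were higher than in control, and *Pfkfb3* was not. Of all tested genes, 20.2% were called higher and 9.04% lower in this comparison. The median difference of the members was 1.37, against 0.16 for all tested genes. After 4 h of RANKL none of the 10 was called in either direction, where 1.21% of all genes were called higher and 1.35% lower. After 4 h of LPS, *Slc2a1*, *Hk2* and *Pfkfb3* were higher and *Pfkl* was lower, against 8.75% higher and 41.0% lower among all genes. After 72 h of LPS, *Slc2a1*, *Pfkfb3*, *Pfkl* and *Slc16a3* were higher and none was lower, against 14.9% and 16.1% of all genes.

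These directions depend in part on scale, since the median tested gene differed from control by -0.52 in LPS 4 h and by 0.16 in RANKL 72 h. With every sample centred on its median gene, RANKL 72 h kept 7 of the 9 calls, *Hk2* and *Pkm* falling short of the fold with differences of 0.37 and 0.43. The shares of all genes called then became 12.7% higher and 14.2% lower in RANKL 72 h and 17.5% higher and 14.3% lower in LPS 4 h. *Pfkl* lost its call in LPS 4 h with a centred difference of -0.38, while *Slc2a1*, *Hk2* and *Pfkfb3* kept theirs.

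**Figure D2:**
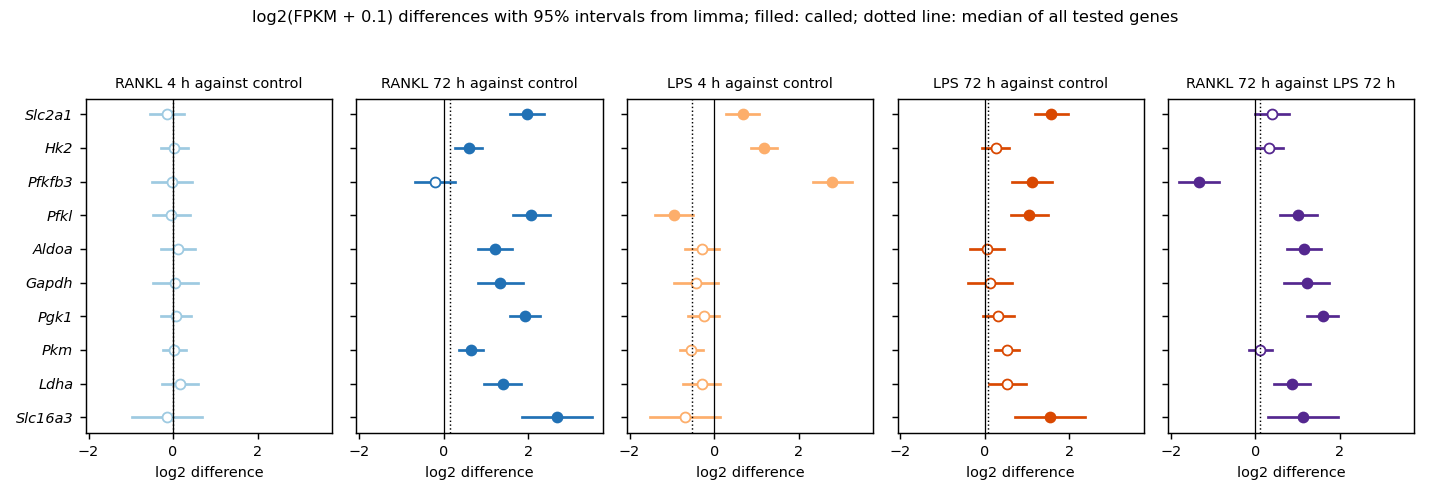
log2 differences (horizontal axis) of the 10 members with 95% intervals from limma in 4 comparisons with control and in RANKL 72 h against LPS 72 h, where filled points were called and the dotted line is the median of all tested genes. No point is filled in RANKL 4 h, 9 are filled in RANKL 72 h, and in LPS 4 h *Pfkfb3* lies farthest from 0 at 2.80.

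Glucose uptake is served by *Slc2a1* (GRCm38 chromosome 4, 119108711 to 119137983, plus strand). Control samples had 24.9, 17.3 and 20.0 FPKM and RANKL 4 h samples 15.4, 17.1 and 24.2, so these groups overlapped. LPS 4 h samples had 37.6, 27.1 and 34.2 FPKM, LPS 72 h samples 56.1, 70.6 and 58.3, and RANKL 72 h samples 78.2, 73.7 and 91.4. *Slc2a1* thus stood in ascending steps from control through LPS 4 h and LPS 72 h to RANKL 72 h, with no overlap between neighbours in that order. Against control it rose by 1.98 (SE 0.19, 3.93-fold, adjusted p = 9.46e-06) in RANKL 72 h, by 1.58 (adjusted p = 4.17e-05) in LPS 72 h and by 0.67 (adjusted p = 0.00681) in LPS 4 h. The 2 groups at 72 h differed by 0.40 with a 95% interval of -0.003 to 0.80, and this difference was not called. The call in LPS 4 h was lost without control replicate 2 (0.55) or without LPS 4 h replicate 1 (0.57), both short of the fold. Antisense genes annotated across *Slc2a1* (*Gm12867* and *Gm12868*) cannot be separated from it without strand, and the use of strand in counting is not given in the sources used here. The same limit holds for *Hk2* (*Gm17034*), *Pfkfb3* (*Gm10851*), *Aldoa* (*Fam57b* and *Gm44856*) and *Gapdh* (*Iffo1*), which overlap those genes of the opposite strand.

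Hexokinase 2, which phosphorylates glucose and so traps it in the cell, is encoded by *Hk2* (chromosome 6, 82725025 to 82774454, minus strand). Its highest group was LPS 4 h, with 48.9, 57.3 and 41.4 FPKM against 23.1, 20.9 and 20.7 in control. LPS 72 h samples were back at 22.3, 30.3 and 25.4 FPKM, overlapping RANKL 4 h (19.6, 24.9 and 21.7), while RANKL 72 h samples had 36.8, 29.7 and 31.5. No LPS 4 h sample overlapped another group. *Hk2* rose by 1.18 (SE 0.15, 2.26-fold, adjusted p = 1.83e-05) in LPS 4 h and by 0.59 (1.51-fold, adjusted p = 0.00861) in RANKL 72 h. The latter stands just above the fold threshold and fell below it without control replicate 2 or 3, without RANKL 72 h replicate 1 (0.50), with a pseudocount of 1 and with samples centred on the median gene. Between 4 h and 72 h of LPS *Hk2* dropped by 0.92 (log2, adjusted p = 9.57e-05). In LPS 72 h it was 0.26 above control (adjusted p = 0.19), not called.

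At the phosphofructokinase step the activator gene *Pfkfb3* and the enzyme gene *Pfkl* moved in opposite directions in LPS 4 h. The fall of *Pfkl* was called on the FPKM scale and not with samples centred on the median gene. *Pfkp*, a further phosphofructokinase gene that is not a member, was called higher in LPS 4 h on either scale, so the fall was not shared by it. *Pfkfb3* (chromosome 2, 11471433 to 11554077, minus strand) had 22.7, 18.9 and 19.6 FPKM in control and 118, 150 and 161 in LPS 4 h. *Pfkl* (chromosome 10, 77986947 to 78010083, minus strand), the liver-type subunit of phosphofructokinase, had 27.7, 14.8 and 15.3 FPKM in control and 11.2, 9.39 and 8.09 in LPS 4 h. Every LPS 4 h sample therefore lay above all controls for *Pfkfb3* and below all controls for *Pfkl*. *Pfkfb3* rose by 2.80 (SE 0.22, 6.96-fold, adjusted p = 3.09e-07), and *Pfkl* fell by 0.95 on the log2 scale (SE 0.20) with an adjusted p of 0.00128.

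In RANKL 72 h the pair took another form. *Pfkl* reached 81.9, 73.3 and 78.1 FPKM, a rise of 2.07 (4.20-fold, adjusted p = 1.40e-05), while *Pfkfb3* had 21.9, 17.6 and 14.0 FPKM, within or below the range of control (difference -0.21, 95% interval -0.68 to 0.26, adjusted p = 0.49). LPS 72 h held both above control, with *Pfkl* at 34.1, 40.5 and 40.7 FPKM (1.05, adjusted p = 0.00148) and *Pfkfb3* at 44.2, 59.8 and 32.4 FPKM (1.11, adjusted p = 0.00164). The FPKM of *Pfkfb3* divided by that of *Pfkl*, a ratio within a sample that no scaling of samples can change, was 1.13 ± 0.26 in control, 1.16 ± 0.39 in RANKL 4 h, 0.23 ± 0.04 in RANKL 72 h, 15.5 ± 4.68 in LPS 4 h and 1.19 ± 0.35 in LPS 72 h (SD, n = 3 each). The RANKL 72 h ratios (0.18 to 0.27) and the LPS 4 h ratios (10.5 to 19.9) overlapped no other group.

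**Figure D3:**
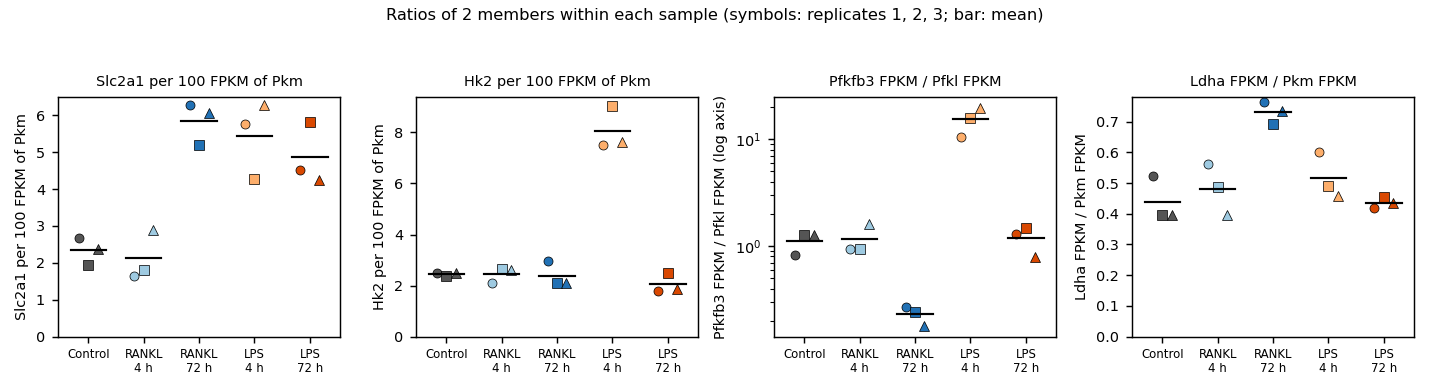
Ratios of FPKM of a pair of members in each sample, by group, with a log axis for *Pfkfb3* / *Pfkl* and linear axes from 0 for *Slc2a1* and *Hk2* per 100 FPKM of *Pkm* and for *Ldha* / *Pkm*; symbols are replicates and bars are means. *Pfkfb3* / *Pfkl* lies at 0.23 in RANKL 72 h and 15.5 in LPS 4 h, and *Hk2* per 100 FPKM of *Pkm* stands out in LPS 4 h at 8.05 against 2.44 in control.

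The genes of the later steps, *Aldoa*, *Gapdh*, *Pgk1* and *Pkm*, were with *Ldha* the most abundant members, *Gapdh* excepted. All 4 rose in RANKL 72 h (*Pkm* only without centring). *Pgk1* (chromosome X, 106187100 to 106203699, plus strand), phosphoglycerate kinase, had 253, 216 and 222 FPKM in control and 811, 827 and 982 in RANKL 72 h. No sample of another group exceeded 380 FPKM for *Pgk1*. The rise was 1.92 (SE 0.17, 3.79-fold, adjusted p = 5.54e-06), against 0.32 (adjusted p = 0.15) in LPS 72 h, where the samples had 227, 276 and 380 FPKM.

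*Aldoa* (chromosome 7, 126800790 to 126809108, minus strand), the aldolase that splits the sugar, went from 465 ± 48.2 FPKM in control to 1086 ± 154 in RANKL 72 h, a rise of 1.22 (adjusted p = 0.000416). *Gapdh* (chromosome 6, 125161715 to 125166467, minus strand), glyceraldehyde-3-phosphate dehydrogenase, went from 43.7 ± 1.86 to 111 ± 8.50 FPKM, a rise of 1.34 (adjusted p = 0.00128). All RANKL 72 h samples lay above all samples of the other groups for both genes. In LPS 72 h the differences from control were 0.06 for *Aldoa* and 0.13 for *Gapdh* (adjusted p = 0.83 and 0.71), and both turned negative without replicate 3 of that group (-0.17 and -0.19), which had 666 FPKM of *Aldoa* against 383 and 442, and 74.3 FPKM of *Gapdh* against 28.1 and 52.4. *Gapdh* is often used to normalise other measurements, and here its samples ranged from 28.1 to 121 FPKM. Its level was below those of *Aldoa* and *Pgk1* in every sample. The mouse genome holds many processed copies of *Gapdh*, and how shared reads were assigned is not given in the sources used here, so the level of *Gapdh* against other members is uncertain.

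*Pkm* (chromosome 9, 59656368 to 59679375, plus strand), pyruvate kinase, had the highest level of the 10 in every group, 884 ± 46.0 FPKM in control. It was the gene that least told the stimuli apart at 72 h, with 1248, 1419 and 1508 FPKM in RANKL 72 h and 1243, 1215 and 1369 in LPS 72 h. The 2 groups overlapped and differed by 0.12 (95% interval -0.16 to 0.41, adjusted p = 0.47). *Pkm* rose by 0.65 (1.57-fold, adjusted p = 0.00252) in RANKL 72 h, and its difference of 0.53 (1.44-fold, adjusted p = 0.00701) in LPS 72 h passed the p threshold and missed the fold. In LPS 4 h it had 653, 634 and 545 FPKM, all below every control sample, with a difference of -0.54 (adjusted p = 0.00311) that also missed the fold and that became 0.03 with samples centred on the median gene. FPKM of the whole gene does not separate the M1 and M2 splice forms of *Pkm*.

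Lactate production and export were represented by *Ldha* and *Slc16a3*. *Ldha* (chromosome 7, 46841475 to 46855627, plus strand) had 487, 352 and 331 FPKM in control, 952, 982 and 1109 in RANKL 72 h and 521, 552 and 594 in LPS 72 h. Both 72 h groups lay above all controls. It rose by 1.40 (SE 0.20, adjusted p = 0.000266) in RANKL 72 h, while 0.53 in LPS 72 h (adjusted p = 0.055) missed the fold and passed it without control replicate 1 (0.70).

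*Slc16a3* (chromosome 11, 120948480 to 120960868, plus strand) had the largest fold of the 10 in RANKL 72 h. Its samples had 94.5, 98.3 and 98.4 FPKM there, against 26.8, 7.93 and 16.2 in control, 19.3, 12.7 and 10.3 in RANKL 4 h, 14.9, 7.46 and 7.18 in LPS 4 h and 36.5, 39.2 and 59.8 in LPS 72 h. On the FPKM scale the controls alone ranged over more than the difference between the mean of control and that of either 4 h group. *Slc16a3* rose by 2.67 (SE 0.39, 6.38-fold, adjusted p = 0.000257) in RANKL 72 h and by 1.54 (SE 0.39, 2.90-fold, adjusted p = 0.00738) in LPS 72 h. In LPS 4 h its difference of -0.70 was not called (adjusted p = 0.13), but was called without control replicate 2 (-1.16) or LPS 4 h replicate 1 (-1.04).

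Compared directly at 72 h, 6 members were higher in RANKL than in LPS and 1 was lower, against 25.1% higher and 13.8% lower of all genes. Of 10 genes commonly used as references, 7 were higher and 1 lower in the same comparison (median 0.76, against 0.94 for the members), about as many as of the members. With samples centred on the median gene both lists had 6 higher and 1 lower. The higher members were *Pgk1* (1.60, adjusted p = 6.64e-06), *Gapdh* (1.21), *Aldoa* (1.16), *Slc16a3* (1.14, adjusted p = 0.0269), *Pfkl* (1.02) and *Ldha* (0.87), and the lower one was *Pfkfb3* (-1.32, adjusted p = 0.00028). *Slc2a1*, *Hk2* (0.33, 95% interval 0.02 to 0.65) and *Pkm* were not called. Without replicate 3 of LPS 72 h the counts were again 6 higher and 1 lower. At 4 h, *Pfkl* was higher in RANKL than in LPS (0.90) and *Slc2a1* (-0.81), *Hk2* (-1.15) and *Pfkfb3* (-2.82) were lower, where 42.5% of all genes were higher and 9.31% lower. With samples centred on the median gene *Pfkl* lost that call (0.34, adjusted p = 0.29) and the other three kept theirs, where 14.7% of all genes were higher and 17.6% lower.

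Over time in RANKL, 8 members were higher at 72 h than at 4 h, against 20.1% higher and 8.24% lower of all genes. The other two were *Hk2* (0.57, 1.48-fold, short of the fold) and *Pfkfb3* (-0.19). With samples centred on the median gene 7 were higher, *Pkm* being lost (0.40, adjusted p = 0.097), where 12.4% of all genes were higher and 13.6% lower. Over time in LPS, *Slc2a1*, *Pfkl*, *Pkm*, *Ldha* and *Slc16a3* were higher at 72 h than at 4 h and *Hk2* and *Pfkfb3* were lower, against 45.0% higher and 14.3% lower of all genes. With samples centred on the median gene, only *Pfkl* and *Slc16a3* were higher and *Hk2* and *Pfkfb3* lower in that comparison, where 19.5% of all genes were higher and 28.6% lower, so that the counts of members were near those of all genes. The change from 4 h to 72 h differed between the stimuli, by an interaction term with adjusted p under 0.05, for *Pfkfb3*, *Hk2*, *Pgk1*, *Slc2a1* and *Aldoa*, 5 of 10, where 52.0% of all genes passed the same threshold.

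In RANKL 4 h, the 10 differences from control ran from -0.15 (*Slc16a3*, 95% interval -0.98 to 0.68) to 0.16 (*Ldha*), each with an adjusted p of 1. The intervals of the other 9 members lay within -0.54 and 0.60, so a change past 1.5-fold up was inside the interval of *Ldha* and *Slc16a3* only.

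The summed FPKM of the 10 members was 2111 ± 216 in control, 2227 ± 241 in RANKL 4 h, 4783 ± 451 in RANKL 72 h, 1779 ± 171 in LPS 4 h and 2891 ± 366 in LPS 72 h (SD, n = 3). Their share of all fragments on listed genes was 0.58% in control and 1.27% in RANKL 72 h. Composition shifted as well. *Pkm* made up 42.0% of the sum in control and 29.1% in RANKL 72 h, while *Pgk1* went from 10.9% to 18.3% and *Ldha* per FPKM of *Pkm* from 0.44 ± 0.07 to 0.73 ± 0.04. In LPS 4 h *Pfkfb3* alone made up 8.17% of the sum, against 0.97% in control.

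Some libraries stood apart in these values, and markers of other cell types differed between the groups. Control replicate 1 was the highest of its group for all 10 members, on average 0.27 above the group mean on the log2 scale. Without it RANKL 72 h had 9 members called, LPS 4 h 4 and LPS 72 h 5. With all samples, 20.2% of all genes were called higher and 9.04% lower in RANKL 72 h. These shares were 8.75% and 41.0% in LPS 4 h and 14.9% and 16.1% in LPS 72 h. Of the 10 stromal markers 8 were called higher in RANKL 72 h and 1 in LPS 72 h, and of the 10 neutrophil markers 5 were called lower in RANKL 72 h and 10 in LPS 72 h. Within RANKL 72 h the stromal sum was highest in replicate 1 (2127 FPKM) and lowest in replicate 3 (466 FPKM). Of the 10 members, 7 were highest in replicate 3 and 3 (*Hk2*, *Pfkfb3* and *Pfkl*) in replicate 1. The same count over all genes was not made. Without RANKL 72 h replicate 1, 8 members were called, *Hk2* being the one lost. The part of other cell types in the results was not tested, and in bulk samples fewer cells of a type and less RNA per cell cannot be told apart.

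The rest of the route was described with 32 further genes of glucose transport, glycolysis and lactate transport, 26 of which were tested. In RANKL 72 h, 12 were higher and 3 lower (median 0.48), and the same counts were found with samples centred on the median gene. Of all genes 20.2% were higher and 9.04% lower there, and 12.7% and 14.2% with samples centred. *Aldoc* (brain-type aldolase) had the largest difference of the list, 4.40 (adjusted p = 6.59e-06), from 1.27 ± 0.11 to 28.9 ± 2.23 FPKM. The triosephosphate isomerase gene *Tpi1* rose by 2.03, *Ldhb* (the heart-type lactate dehydrogenase) by 1.71, *Pgam1* by 1.67, *Eno1* (enolase 1) by 1.61 and *Gpi1* (glucose phosphate isomerase) by 1.45. With *Aldoa*, *Gapdh*, *Pgk1* and *Pkm*, at least 1 gene for every step from glucose 6-phosphate to pyruvate was thus higher, though for the last step (*Pkm*) not with samples centred on the median gene. *Eno1* has a near-identical copy in the mouse, *Eno1b*, and its level is uncertain.

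Among hexokinases *Hk1* rose by 0.89 while *Hk3*, the hexokinase of myeloid cells, dropped by 1.61 (log2), from 226 ± 21.6 to 74.4 ± 10.6 FPKM (adjusted p = 8.67e-07). *Fbp1*, which runs the phosphofructokinase step backwards, and *Tigar*, which degrades fructose 2,6-bisphosphate, also fell, by 1.34 and 0.64. *Fbp1* had only 0.28 ± 0.06 FPKM in control and 0.059 in RANKL 72 h, levels at which the added 0.1 FPKM sets much of the size of the difference. *Pfkm*, *Pfkp* and *Pfkfb2* rose with *Pfkl* (1.44, 1.07 and 1.41). The glucose transporter gene *Slc2a3* did not pass the test in RANKL 72 h (-0.36, adjusted p = 0.65), and its controls varied widely (13.3 ± 8.60 FPKM).

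In LPS 4 h, 4 of the 26 were higher and 13 lower (median -0.60, against -0.52 for all genes), which became 5 and 6 with samples centred on the median gene. Of all genes 8.75% were higher and 41.0% lower there, and 17.5% and 14.3% with samples centred. The largest difference of the list was that of *Slc2a6*, a hexose transporter of intracellular membranes in macrophages, from 8.11 ± 3.52 to 163 ± 46.8 FPKM (4.36, adjusted p = 8.66e-08). *Pfkfb4* and *Pfkfb2*, relatives of *Pfkfb3*, moved the other way from it and fell by 2.19 and 1.79 on the log2 scale. *Slc16a1*, the lactate transporter MCT1, rose in LPS at 4 h (0.96) and 72 h (1.42) but was 0.17 above control in RANKL 72 h (adjusted p = 0.63), where its relative *Slc16a3* rose. *Bsg*, the chaperone that carries both transporters to the membrane, rose at 72 h under either stimulus (0.92 and 1.0 on the log2 scale). LPS 72 h had 6 higher and 4 lower in this list, 5 and 5 with samples centred, with *Tpi1* (1.53) higher and *Slc2a3* (-2.03, adjusted p = 0.0121) lower. Of all genes 14.9% were higher and 16.1% lower there, and 11.8% and 18.1% with samples centred.

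Pyruvate can also enter the mitochondrion. Of 10 genes for that entry, 6 were higher and 1 lower in RANKL 72 h (5 and 1 with samples centred). Of all genes 20.2% were higher and 9.04% lower there (12.7% and 14.2% centred). In LPS 4 h 5 of the 10 were lower and none higher (3 lower with samples centred). There 41.0% of all genes were lower (14.3% centred). Those higher in RANKL 72 h included both subunits of pyruvate dehydrogenase E1 (*Pdha1* 0.92, *Pdhb* 1.04), the pyruvate carboxylase gene *Pcx* (1.72) and the kinases that switch pyruvate dehydrogenase off, *Pdk1* (3.13, adjusted p = 2.63e-06, 5.10 ± 0.90 to 45.0 ± 5.46 FPKM) and *Pdk2* (1.41). *Pdk4* was called at 0.84 with an adjusted p of 0.11, and not with samples centred. *Pdp1*, a phosphatase that reactivates pyruvate dehydrogenase, fell by 0.74 in RANKL 72 h and by 2.99 in LPS 4 h. In the pentose phosphate route, which branches off at glucose 6-phosphate, none of 8 genes was higher in RANKL 72 h, and *G6pdx* (-0.80) and *Rpia* (-0.98) were lower. With samples centred none was higher and 3 were lower, *Taldo1* being added. In LPS 4 h 4 of these 8 were lower and none higher (1 lower with samples centred), again near the share of all genes. In LPS 72 h *H6pd* was higher and *Tkt* lower, where 14.9% of all genes were higher and 16.1% lower.

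Of 16 genes for HIF, its regulators and its known targets, 11 were higher and none lower in RANKL 72 h (median 1.44), 2 were higher and 7 lower in LPS 4 h, and 10 were higher and 1 lower in LPS 72 h. Centred on the median gene these counts were 11 and 0, 3 and 1, and 9 and 1. With samples centred 12.7% of all genes were higher and 14.2% lower in RANKL 72 h. The centred shares were 17.5% and 14.3% in LPS 4 h and 11.8% and 18.1% in LPS 72 h. The 3 higher in LPS 4 h were thus near the share of all genes. Without centring 8.75% of all genes were higher and 41.0% lower in LPS 4 h, so the uncentred counts there were near those shares. In RANKL 72 h 20.2% of all genes were higher and 9.04% lower, and in LPS 72 h 14.9% and 16.1%. *Bnip3*, a mitophagy receptor, rose from 12.2 ± 6.64 to 158 ± 20.1 FPKM in RANKL 72 h (3.81, adjusted p = 1.19e-05) and to 42.9 ± 6.19 in LPS 72 h (1.93). *Ankrd37* (3.68), *Egln3* (3.19) and *Egln1* (2.02), the latter pair encoding hydroxylases that mark HIF for degradation, rose in RANKL 72 h too. *Hif1a* itself, which encodes the oxygen-regulated subunit, was 23.8 ± 2.42 FPKM in control and 30.0 ± 5.95 in RANKL 72 h, not called (0.32, adjusted p = 0.20). It rose in LPS, to 58.1 ± 4.15 at 4 h (1.28) and 78.2 ± 19.7 at 72 h (1.69, adjusted p = 2.40e-05). In RANKL 4 h *Adm* (-1.32) and *Ankrd37* (-1.58) were called lower, with adjusted p of 0.25 and 0.33. RNA of *Hif1a* gives no measure of its protein, whose level is set mainly by degradation.

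**Figure D4:**
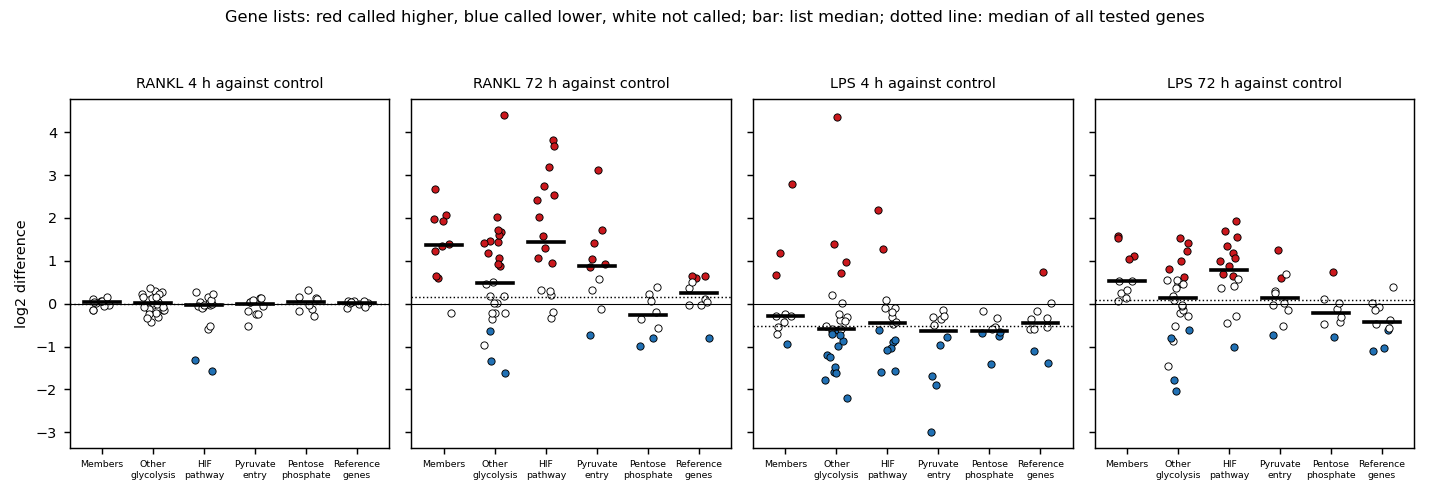
log2 differences from control (vertical axis) of each tested gene in the members and 5 other lists (horizontal axis) for the 4 stimulated groups, where red points were called higher, blue called lower, bars are list medians and the dotted line is the median of all tested genes. In RANKL 72 h the bars of members (1.37) and HIF pathway (1.44) stand above the dotted line at 0.16, and in LPS 4 h single points, *Slc2a6* at 4.36 and *Pfkfb3* at 2.80, stand far above their lists.

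Other regulators of the route gave fewer calls. Of 9 tested, *Ppargc1b*, a coactivator of mitochondrial genes, rose by 2.49 and *Myc* by 0.75 (adjusted p = 0.035, not called with samples centred) in RANKL 72 h, while *Max*, the partner of MYC, fell by 0.90 on the log2 scale. *Myc* fell by 2.15 in LPS 72 h (adjusted p = 3.63e-05), from 20.6 ± 2.97 to 4.72 ± 1.69 FPKM, where *Max* also fell, by 0.79. In LPS 4 h *Ppargc1b* rose (1.23) and *Akt1* fell (-0.69, not called with samples centred). Of the 10 reference genes, 3 were higher and 1 lower in RANKL 72 h, 1 higher and 2 lower in LPS 4 h, and 3 lower in LPS 72 h, and centred values gave 0 and 1, 1 and 1, and 0 and 4. No gene of the 10 was called in RANKL 4 h. A broader list, the KEGG glycolysis and gluconeogenesis pathway as annotated in the deposited table, was added after its values could be seen. Without the members it held 41 tested genes, of which 16 were higher and 5 lower in RANKL 72 h, 3 and 20 in LPS 4 h, and 6 and 7 in LPS 72 h. Centred on the median gene these counts were 14 and 6, 6 and 5, and 5 and 7. Uncentred, the 20 lower in LPS 4 h stood beside 41.0% lower of all genes. The uncentred shares of all genes were 20.2% higher and 9.04% lower in RANKL 72 h and 14.9% and 16.1% in LPS 72 h. Centred, they were 12.7% and 14.2% in RANKL 72 h, 17.5% and 14.3% in LPS 4 h, and 11.8% and 18.1% in LPS 72 h. The centred counts of this list in LPS 4 h and LPS 72 h were near those shares.

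The members were not one pattern. Likeness was measured as the root mean square of the 4 log2 differences from control between a pair of genes. The closest pair was *Aldoa* and *Gapdh* (0.10), followed by *Gapdh* and *Ldha* (0.22), and the farthest was *Pfkfb3* and *Slc16a3* (2.28). Over 9476 genes compared, the genes nearest to the mean of the members were *Rest* (0.066), *Aph1b* (0.067) and *Lama4* (0.088). The gene nearest to *Pfkfb3* was *Sema4c* (0.19), which had a difference of 2.78 in LPS 4 h and -0.13 in RANKL 72 h, and the nearest to *Slc2a1* was *Tnfrsf9* (0.20), with 2.22 in RANKL 72 h and 1.70 in LPS 72 h. *Pfkl* was nearest to *Grhpr* (0.14), *Pgk1* to *Raet1d* (0.044) and *Slc16a3* to *Flnc* (0.22). *Ldha* was nearest to *Mxra8* (0.067), *Aldoa* to *Prss23* (0.068), *Gapdh* to *Fkbp14* (0.10), *Pkm* to *Gstm5* (0.035) and *Hk2* to *Rab3ip* (0.097).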

How the data were processed

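Bulk RNA sequencing of BMDMs was available for 15 samples, grouped by their labels into 5 groups of 3. The authors deposited FPKM values per gene for each sample, and credit them to StringTie and Ballgown in their methods. The submitters' processing notes name GRCm38.p4 and mm10. The aligner and the handling of shared reads and strand are not given in the sources used here. The table as used here ends inside 1 incomplete row, and genes after it were not analysed here.

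For 14485 genes, FPKM values above 0 were whole multiples of a step, which gave the number of fragments (100% of values within 0.01 of a whole number). log2(FPKM + 0.1) was fitted for the 11743 genes whose mean reached 0.1 FPKM, with limma 3.58.1 (lmFit and eBayes with a trend) in R 4.3.3, with 1 mean per group. The study chose its genes with edgeR, a count model that FPKM values do not allow, and limma voom on the recovered fragments was an alternative. The fit was tested on simulated data. Other alternatives were the pseudocount (1, 0.01), the filter on low values, scaling, the block for replicate number, the groups fitted, the trend, adjusted p and leaving out each replicate. Centring on the median gene was among them, and leaving out all libraries numbered 1 was added after seeing the data.

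The members and lists were chosen with earlier results of these data known. Named beside the 10 members were, for each list and comparison with control, up to 3 called genes with the largest differences and a set of pathway genes given by name. *Pdk2*, *Pdk4*, *Pdha1*, *Pdhb*, *Pfkm*, *Fbp1*, *Tigar* and others named with values outside this rule were chosen after their values were seen. Gene positions were read from GENCODE M21 (GRCm38) and promoters from RefSeq (GRCm38.p6) (all 10 members matched). The labels number the replicates without saying what equal numbers share. Deviations from the group means correlated above 0.1 for every number between any pair of the groups other than LPS 72 h (0.10 to 0.84 over 9486 genes), but not with that group (lowest -0.23). Python 3.11.15, numpy 2.4.6, pandas 2.3.3 and matplotlib 3.10.9 were used.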

Additional observations from a re-analysis of the deposited data

Results flagged for a closer look

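For 5 members the change from 4 h to 72 h differed between RANKL and LPS by an interaction term in limma with an adjusted p under 0.05. The values are the change in RANKL minus the change in LPS, on the log2 scale. For *Pfkfb3* this was 1.5 (adjusted p = 0.00129), made of -0.19 over time in RANKL and -1.68 in LPS. *Hk2* gave 1.48 (adjusted p = 7.19e-05), from 0.57 in RANKL and -0.92 in LPS, of which only the fall in LPS was called. *Pgk1* gave 1.28 (adjusted p = 0.000616), with 1.85 in RANKL and 0.57 in LPS. *Slc2a1* gave 1.21 (adjusted p = 0.00172), with 2.12 in RANKL and 0.91 in LPS, the latter not called with samples centred on the median gene (0.26, adjusted p = 0.28). *Aldoa* gave 0.76 (adjusted p = 0.0288), with 1.11 and 0.35. The changes of *Pgk1* and *Aldoa* in LPS were not called, and became -0.0747 and -0.30 with samples centred. Of all tested genes 52.0% passed this threshold, so the count of 5 in 10 is close to that of the whole table.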

How the results depend on the processing

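Of 720 member values compared with control recomputed under other settings, 682 kept their direction and side of the threshold, 10 lost a call, 4 gained one and 24 changed sign, none of them called. With samples centred on the median gene, LPS 4 h differences became 0.28 for *Aldoa*, 0.14 for *Gapdh*, 0.32 for *Pgk1*, 0.0298 for *Pkm* and 0.27 for *Ldha*, that of *Aldoa* in LPS 72 h became -0.0213, and 4 members in place of 7 were called between LPS 72 h and LPS 4 h. Without the libraries numbered 1, RANKL 4 h differences became 0.13 for *Slc2a1*, 0.11 for *Pfkfb3*, 0.16 for *Pfkl* and 0.0096 for *Slc16a3*, near 0 as before. Leaving out 1 library at a time gave, in RANKL 4 h, -0.18 to 0.0829 for *Pfkfb3*, -0.20 to 0.24 for *Pfkl*, -0.61 to 0.26 for *Slc16a3*, -0.0646 to 0.11 for *Hk2*, -0.0058 to 0.0906 for *Pkm*, -0.0018 to 0.17 for *Pgk1* and -0.0028 to 0.14 for *Gapdh*, and in LPS 72 h -0.17 to 0.23 for *Aldoa* and -0.19 to 0.51 for *Gapdh*. With all samples 42.5% of all genes were higher and 9.31% lower in RANKL 4 h than in LPS 4 h. Leaving out 1 library gave 4 to 7 members called there, 7 without LPS 4 h replicate 1. The cause was not tested. With the replicate block, 9 members were called in RANKL 72 h as without it, and no member's call against control changed. Of all genes 21.0% were then higher and 9.7% lower in RANKL 72 h. Depth limits little here. The error is set by 3 samples a group, whose independence is unknown.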
